A study of Mus musculus with 2 samples.

Results

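The 10 genes of the cytotoxic granule described here were measured in Vγ6 γδ T cells, which arise in the fetal and newborn thymus and carry a γδ receptor with the Vγ6 chain. They were the granzyme genes Gzma, Gzmb, Gzmc, Gzmk and Gzmm, the perforin gene Prf1, and Nkg7, Ctsw, Srgn and Lamp1. They were chosen by symbol, and each of the 10 had 1 row of its own on the array, shared with no other gene, among 30142 genes with a row of their own. The cells were sorted by flow cytometry from thymi of C57BL/6 mice aged 0 days, of genotype MHC class II KO, which lack the peptide-presenting molecules read by CD4 T cells, and from WT mice of the same strain and age. Each genotype was measured on 1 array, called the knockout array and the WT array here, so the values describe these 2 arrays, with no replicate check, error or test. Which class II gene was disrupted, and whether thymi were pooled, is not stated in the labels. The study asked how the transcripts of these cells differ when MHC class II is missing.

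Cytotoxic lymphocytes kill by releasing secretory lysosomes towards a target cell. Perforin forms pores in the target's membrane, and granzymes, a family of serine proteases, pass into the cell and cleave proteins there. The contents are packed on serglycin, a proteoglycan with chondroitin sulfate chains, inside a membrane rich in LAMP1, and the membrane protein NKG7 takes part in their release. Vγ6 cells are known for making interleukin 17 rather than for killing.

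In log2 of the deposited signal, Nkg7 and Gzmb were the only members at least 2-fold apart, and both were lower on the knockout array. Gzma, which encodes a granzyme that cleaves after basic residues, and Ctsw, which encodes the lymphocyte protease cathepsin W, were somewhat higher there. Srgn and Lamp1, for the packaging proteoglycan and the lysosomal membrane, were nearly level. Prf1, Gzmk and Gzmm were not above background on either array. Values are given as log2 of the deposited signal, and background is the 95th percentile of 1228 olfactory receptor rows, genes of smell not known for use in T cells. It corresponded to log2 signals of 5.86 on the knockout array and 5.94 on the WT array. Levels of different genes come from different probes and are not set against each other.

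**Figure D1:**
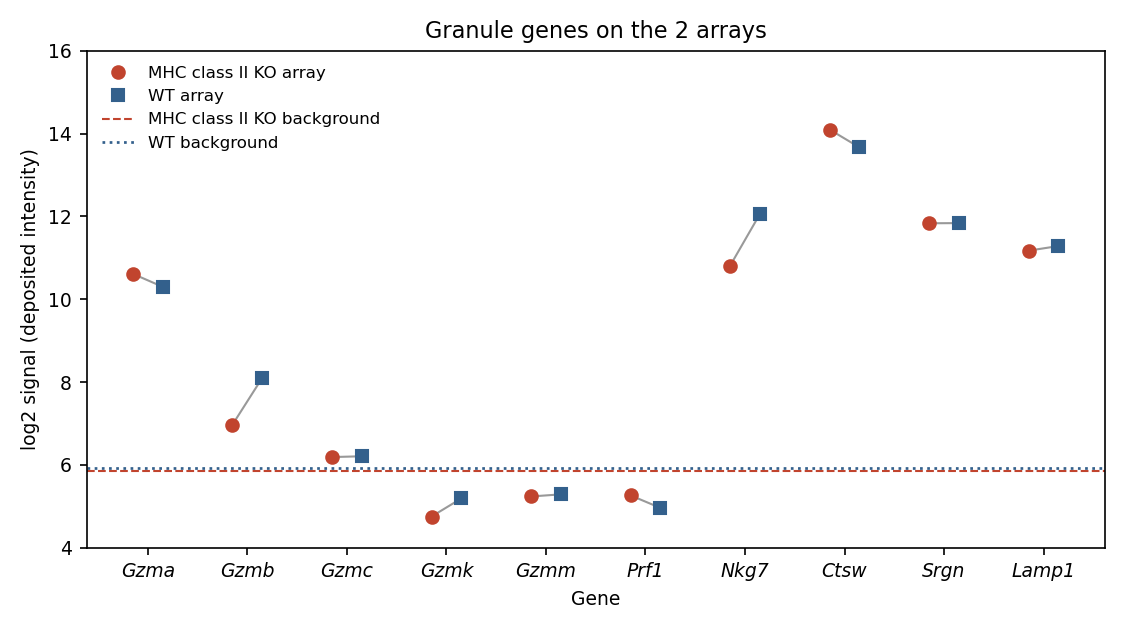
Log2 signal (vertical axis) of the 10 granule genes (horizontal axis) on the MHC class II KO array (circles, left of each pair) and the WT array (squares, right), 1 array each, with the background of each array as a horizontal line. The circles of Nkg7 and Gzmb lie below their squares, and Gzmk, Gzmm and Prf1 lie under both lines.

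Of the granzyme genes, only Gzmb was at least 2-fold apart. Gzmb, for the granzyme that cleaves after aspartate and starts apoptosis in target cells, had a log2 signal of 6.97 on the knockout array, against 8.11 on the WT array. Both were above background, and the difference of -1.13 corresponds to a signal 2.19-fold lower on the knockout array. Gzma had a log2 signal of 10.61 on the knockout array and 10.30 on the WT array, a smaller difference of 0.31 in the other direction. Gzmc, a mouse granzyme gene next to Gzmb on the chromosome, lay just above background at 6.19 on the knockout array and 6.21 on the WT array. Its difference of -0.02 became 0.03 with quantile normalization of the 2 arrays, so it has no settled sign. Gzmk, for another granzyme that cleaves after basic residues, had log2 signals of 4.76 on the knockout array and 5.19 on the WT array. Gzmm, for a granzyme that cleaves after methionine, measured 5.24 on the knockout array and 5.29 on the WT array. These values are under background, so no difference is read from them.

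Prf1 had a log2 signal of 5.27 on the knockout array and 4.96 on the WT array. The pore-forming partner of the granzymes was therefore not above background on either array, while Gzma stood 4.75 log2 units above it on the knockout array and 4.36 on the WT array. A level under background limits what the array can show and does not mean that the transcript is absent.

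Nkg7 had the largest difference of the members. Its log2 signal was 10.81 on the knockout array, against 12.06 on the WT array, a difference of -1.25 or a 2.38-fold lower signal. It stayed 4.94 log2 units above background on the knockout array, so it remained detected there. Ctsw had a log2 signal of 14.10 on the knockout array and 13.67 on the WT array, a difference of 0.43. Srgn measured 11.84 on both arrays, and Lamp1 measured 11.17 on the knockout array and 11.29 on the WT array, a difference of -0.11.

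Among the 14494 genes that 1 array or both placed above background, 117 were at least 2-fold lower on the knockout array, which is 0.807%, and 107 at least 2-fold higher, which is 0.738%. Of the 10 members 7 were above background, all on both arrays, and 2 of these 7 were past 2-fold in the lower direction and 0 in the higher. Counting from the lowest difference, Nkg7 ranked 121 and Gzmb 133 among the 14494 genes. Counting from the highest, Ctsw ranked 1194 and Gzma 2183. The median difference of the 7 members was -0.02, beside 0.04 for all genes above background, and 5 of the 7 differences were below 0, or 4 with quantile normalization or a loess correction, when that of Gzmc turned. At 1.5-fold the same 2 of the 7 members were lower and 0 higher, beside 2.66% of all genes lower and 3.74% higher at that threshold.

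**Figure D2:**
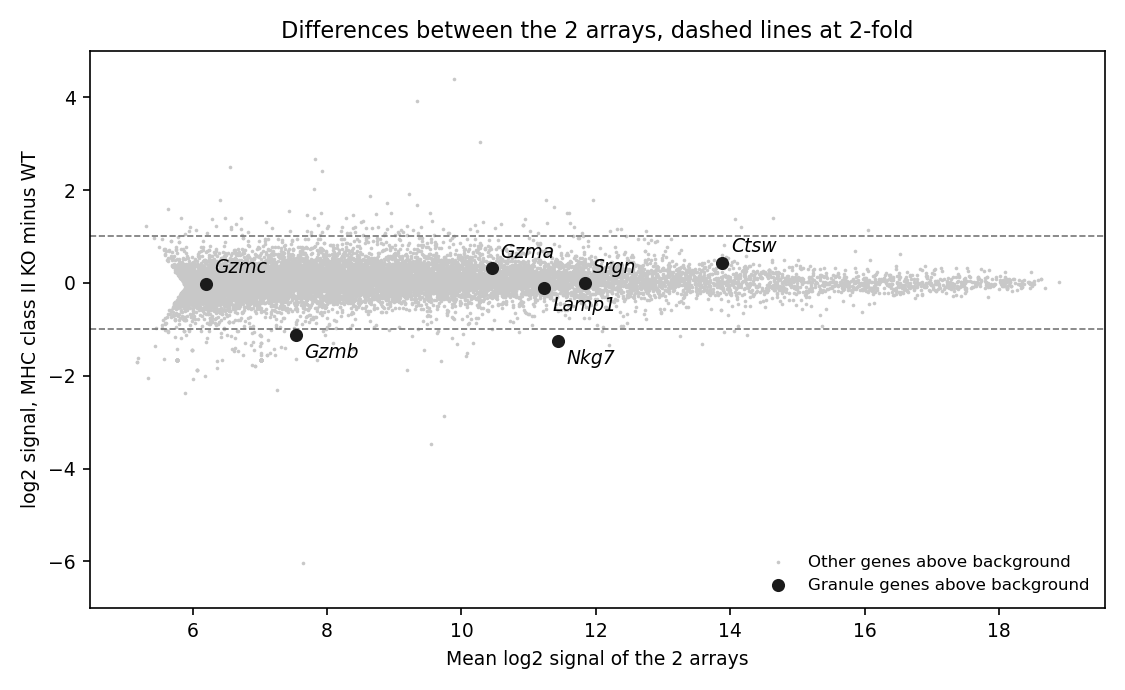
Difference in log2 signal, MHC class II KO minus WT (vertical axis), against the mean log2 signal of the 2 arrays (horizontal axis) for the 14494 genes above background. The 7 granule genes above background are black, the dashed lines mark 2-fold, and only Nkg7 (-1.25) and Gzmb (-1.13) of the 7 lie outside them.

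The size of these folds depends on how the deposited scale was made. The highest signals were 487523 on the knockout array and 480711 on the WT array, above the ceiling of 65535 of a 16-bit scanner, and the sources used here do not give the step that took them there. In log2 these highest signals are 18.9 on both arrays, and in natural log 13.1 on both. Only the natural log lies under the 16 bits of the scanner. Which scale holds was not tested. If the natural log of a deposited value is read as its log2 signal, a choice made after seeing the data, Nkg7 differs by -0.87 and Gzmb by -0.78, and neither reaches 2-fold. The share of all genes at least 2-fold lower is then 0.393%.

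Fewer cells that carry a transcript and less transcript per cell cannot be told apart in RNA from sorted bulk cells. Of the γδ T cell markers, all 6 with a row of their own were above background on both arrays, with 4 differences above 0, 2 below and a median of 0.11. The lowest was Tcrg-V6, the Vγ6 gene, with log2 signals of 12.33 on the knockout array and 12.64 on the WT array, and the highest Blk, a kinase gene, at 0.47. NK cells and innate lymphoid cells of type 1 also carry Nkg7 and granzymes. Of 8 of their markers with a row of their own, 2 were above background, Klrb1c (difference 0.16) and Tyrobp (0.34), and the defining genes Ncr1 and Eomes were not above background on either array. Tyrobp passed background on the WT array by only 0.04 log2 units. The summed signal of the 8 was 444 on the knockout array and 419 on the WT array, with 6 of the 8 under background on both. Of 11 mast cell, basophil and granulocyte markers, 4 were above background, with S100a9 and S100a8, neutrophil genes, at -0.46 and -0.33, Cpa3, a mast cell protease gene, at -0.15 and Kit at -0.04. S100a8 passed background on the knockout array by only 0.02 log2 units. The defining genes Ms4a2 and Mcpt8 were not above background on either array, and the summed signal of the 11 was 681 on the knockout array against 774 on the WT array, with 7 of them under background on both. Markers of double positive and αβ thymocytes moved with the comparison. Of 8 such markers 7 were above background, 3 of them at least 2-fold higher and 0 lower. Among all genes above background these shares were 0.738% and 0.807%. The summed signal of the 8 was 31871 on the knockout array against 12980 on the WT array. Most of this sum was the 1 row of Cd8b1, the CD8 β chain gene, which differed by 1.38, and without it the sums were 4269 on the knockout array and 2346 on the WT array. Dntt, for the enzyme that adds nucleotides to rearranging receptor genes, passed background on the knockout array only, with a bound of 1.88. The marker Ptcra also passed it on that array only, with a bound of 0.49. Among 10 markers of dendritic cells and macrophages 4 passed background, with Irf8 at 1.11, Cd68 at 0.91 and Siglech at 0.03. Lyz2 passed it on the knockout array only, with a bound of 0.30. The summed signal of the 10 was 1288 on the knockout array against 811 on the WT array. Csf1r, Itgax and Flt3 were among the 6 markers under background on both arrays. The part of these cells in the differences of the granule genes was not tested. As a check of the genotype, 3 class II chain genes were read. H2-Ab1 had a log2 signal of 6.67 on the knockout array, still 0.81 above background, and 7.68 on the WT array. H2-Eb1 measured 5.98 on the knockout array, 0.12 above background, and 6.95 on the WT array. H2-Aa was under background on the knockout array at 5.08 and above it on the WT array at 6.09. Whether these probes lie inside the deleted part is unknown, which limits them as a check.

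The promoters of Nkg7 and Gzmb are shown because these genes were lower together, and those of Gzma and Gzmc because they are granzyme genes that were not. They were picked by these differences, so a contrast of their matches is no test. Each is a RefSeq window of build GRCm38.p6, from 250 bases before to 50 bases after the annotated start, printed 5′ to 3′ on the gene's strand. Capitals mark matches on either strand to TCACAC or AGGTGTGA (T-box factors such as T-bet and Eomes), TGTGGT (Runx factors) or TGANTCA (AP-1).
Nkg7, chr7:43436888-43437187, plus strand: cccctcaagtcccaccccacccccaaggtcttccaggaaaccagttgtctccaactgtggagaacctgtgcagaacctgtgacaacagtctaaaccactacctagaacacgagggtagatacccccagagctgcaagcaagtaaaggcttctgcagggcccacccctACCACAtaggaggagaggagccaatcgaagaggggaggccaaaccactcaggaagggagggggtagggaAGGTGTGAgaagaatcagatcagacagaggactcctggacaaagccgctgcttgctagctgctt
Gzmb, chr14:56262285-56262584, minus strand: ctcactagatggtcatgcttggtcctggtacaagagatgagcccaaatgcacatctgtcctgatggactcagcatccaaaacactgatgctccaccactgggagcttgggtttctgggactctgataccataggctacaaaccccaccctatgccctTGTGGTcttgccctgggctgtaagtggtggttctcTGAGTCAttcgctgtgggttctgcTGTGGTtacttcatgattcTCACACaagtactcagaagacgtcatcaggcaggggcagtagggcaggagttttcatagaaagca
Gzma, chr13:113100932-113101231, minus strand: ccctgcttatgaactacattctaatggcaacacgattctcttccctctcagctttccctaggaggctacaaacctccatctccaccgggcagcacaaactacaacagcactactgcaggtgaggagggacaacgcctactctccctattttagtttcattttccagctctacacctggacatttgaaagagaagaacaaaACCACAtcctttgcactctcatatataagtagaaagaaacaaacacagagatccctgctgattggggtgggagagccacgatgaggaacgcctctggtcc
Gzmc, chr14:56234608-56234907, minus strand: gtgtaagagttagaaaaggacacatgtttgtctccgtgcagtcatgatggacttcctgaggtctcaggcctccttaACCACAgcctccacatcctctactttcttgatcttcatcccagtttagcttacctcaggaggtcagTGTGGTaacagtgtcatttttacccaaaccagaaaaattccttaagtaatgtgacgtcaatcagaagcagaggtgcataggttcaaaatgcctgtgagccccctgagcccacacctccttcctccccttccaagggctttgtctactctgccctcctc
The Nkg7 window holds AGGTGTGA starting 14 bases before the start, and the last 6 bases of this match are TCACAC on the other strand. It also holds 1 Runx match. The Gzmb window holds TCACAC starting 15 bases before the start, 2 Runx matches and 1 AP-1 match. The Gzma window holds 1 Runx match and the Gzmc window 2, and neither holds TCACAC. Over 32851 RefSeq promoter windows of the same length, 14.5% hold TCACAC, 1.28% AGGTGTGA, 16.8% TGTGGT and 7.81% TGANTCA. The ETS core GGAA, not put in capitals, is in 96% of them. The Gzmb window has 0 matches to it and the Nkg7 window 4. Windows were matched for 9 of the 10 members, all but Ctsw. Of the other members, TCACAC also occurs in the Gzmk window and in 1 of the 2 Gzmm windows, whose genes were under background. It is absent from the windows of Srgn, Lamp1 and Prf1. A match is a run of letters, not a measured binding site.

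The gene for T-bet, a transcription factor known to drive cytotoxic genes through T-box sites, was higher on the knockout array. Any part of T-bet in the differences of Nkg7 and Gzmb was not tested. Tbx21, which encodes T-bet, had a log2 signal of 7.31 on the knockout array and 6.14 on the WT array, a difference of 1.17, from a level 0.20 log2 units above background on the WT array. With background at the 99th percentile of olfactory receptor rows it has only a bound, which is under 2-fold. Eomes, the related T-box gene, was not above background on either array. Of the 8 transcription factor genes listed, 5 were above background with a row of their own. The other 4 were within 1.5-fold, with Bhlhe40 at -0.16, Id2 at -0.08, Prdm1, for the effector regulator Blimp-1, at -0.03 and Runx3, which promotes the cytotoxic programme, at 0.02.

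Other genes related to granules and killing, among them transcription factors and death ligands, were taken from 9 lists and counted whatever their values. Over all of them, 58 genes passed background on 1 array or both. Of these, 1 was higher by at least 2-fold (Tbx21), 0 were lower by that much, and 55 were within 1.5-fold. Among all genes above background, 0.738% were at least 2-fold higher and 0.807% lower. At 1.5-fold these shares were 3.74% and 2.66%, so most genes of any kind were within 1.5-fold. The median difference of the 58 was 0.07. Of the remaining granzyme genes, Gzmf, Gzmg and Gzmn were not above background on either array, and neither was the row that Gzmd and Gzme share. The other serine protease genes of the same locus, 8 genes of mast cells and granulocytes such as Cma1, Mcpt4 and Ctsg, were all under background as well. Of the genes of the granzyme B locus listed here, Gzmb and Gzmc were thus the genes with a signal above background. Whether their probes also bind transcripts of these close relatives was not tested.

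Genes that activate or restrain granule proteases were within 1.5-fold for the most part, as were most of all genes above background. Ctsc, for the dipeptidyl peptidase cathepsin C that turns granzyme precursors into active enzymes, had a log2 signal of 10.36 on the knockout array and 9.90 on the WT array, a difference of 0.45. Cst7, for cystatin F, an inhibitor of cathepsin C, measured 12.89 on the knockout array and 13.17 on the WT array, a difference of -0.28. Ctss, for the lysosomal protease cathepsin S, was 1.67-fold higher on the knockout array, the 1 gene of 9 in this list past 1.5-fold. It is also made by antigen-presenting cells. Ctsh passed background on the knockout array only, by 0.13 log2 units. Among 6 inhibitors of granule proteases, all above background and all within 1.5-fold, Serpinb9, for the inhibitor that shields killer cells from granzyme B, differed by -0.22, Serpinb9b by -0.14, Serpinb1a, an inhibitor of neutrophil-type serine proteases, by 0.39, and Cstb, the cytosolic inhibitor cystatin B, by -0.36. Serpinb9b lay only 0.10 log2 units above background on the knockout array and 0.16 on the WT array. For Serpinb9 these margins were 0.34 and 0.48.

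Granule membrane and release genes above background were all within 1.5-fold. So were most genes above background, of which 2.66% were lower and 3.74% higher by at least that much. The 8 membrane genes had a median of 0.12, with Tpcn1, for a lysosomal ion channel, at 0.40, Npc1, a cholesterol exporter, at 0.29, Mcoln1, a calcium channel, at 0.21 and Cd63, a tetraspanin of secretory lysosomes, at -0.32. Of 18 transport and exocytosis genes 16 were above background, with a median of 0.10. Rab27a, for the GTPase that docks granules at the plasma membrane, had the lowest difference, -0.43, with log2 signals of 8.88 on the knockout array and 9.31 on the WT array. Sytl2, for a partner of Rab27a, differed by -0.31. Unc13d, for the Munc13-4 priming factor, differed by 0.23, Stx7, a syntaxin of the endosome, by 0.29, and Lyst, whose loss gives giant granules, by 0.27.

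The chondroitin sulfate chains that serglycin carries are started by xylosyltransferases. Xylt1, for one of them, had a log2 signal of 8.37 on the knockout array and 7.42 on the WT array, a difference of 0.95, and Xylt2, for the other, differed by 0.36. Of 12 genes in this list 9 were above background, with B3gat3 at 0.31, B3galt6 at 0.24 and Xylt1 the 1 gene past 1.5-fold. Srgn itself, the core protein gene, differed by -0.0042. Killing without granules uses ligands of death receptors, and Fasl, for the ligand of Fas, was not above background on either array. Of the other 5 genes of that list, Tnf differed by 0.56, Fas by 0.16, Lta by 0.11, Tnfsf10, for TRAIL, by 0.07 and Ltb by -0.06.

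**Figure D3:**
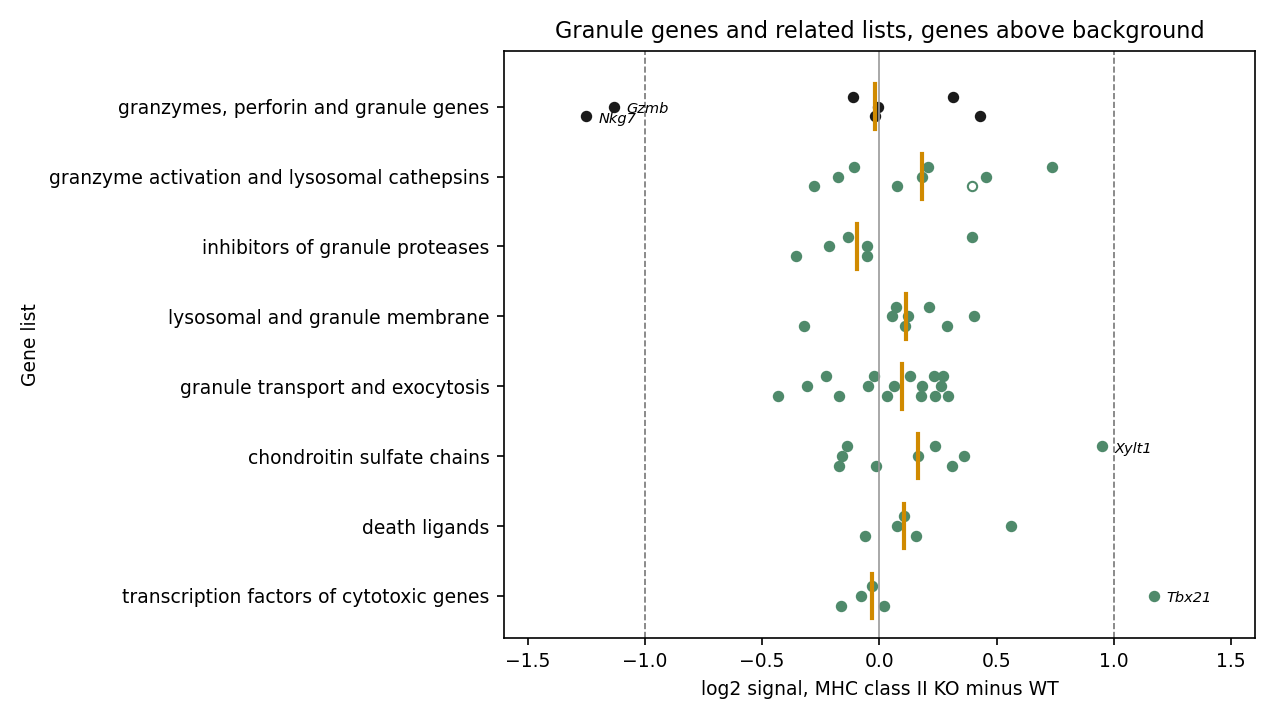
Difference in log2 signal, MHC class II KO minus WT (horizontal axis), of the genes above background in each list (rows), 1 point a gene, with the list's median as a vertical bar and dashed lines at 2-fold. The open point is Ctsh, above background on 1 array alone, and Nkg7 and Gzmb are the only points left of -1.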

How the data were processed

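RNA of sorted Vγ6 γδ T cells was hybridised to whole-transcript GeneChip arrays, 1 MHC class II KO and 1 WT. The authors deposited linear-scale intensities, and the submitters' processing notes name RMA and Affymetrix Expression Console 1.4.1. The sources used here give neither the RMA variant nor the genome build. From these intensities the log2 signal and its difference, MHC class II KO minus WT, were computed in Python 3.11.15 with pandas 2.3.3. Rows were named from the platform's annotation, updated through gene identifiers with the RefSeq table of assembly GRCm38.p6, and the brightest of several rows of a gene was used. Genes that passed background on either array were counted at 2-fold. Where 1 array was under background, its background took the place of the value in counts. The number of arrays limits the precision, and no test was possible. The 10 members and all lists were chosen with earlier results of these data known. Besides the members, the text names up to 4 genes above background of each related granule list, those with the largest absolute differences. Unc13d, Runx3 and Ltb, the related genes named as under background, and all genes named from the cell type marker and class II lists or as chromosome neighbours are outside this rule and were chosen after their values were seen. The counting code was run on simulated data with planted differences past the threshold. This checks the code, and not how reliable a count from 1 array per group is. Alternatives were 3 other scalings, raised low values, averaged rows, other background filters and other thresholds.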

Additional observations from a re-analysis of the deposited data

How the results depend on the processing

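No paired analysis was possible because each group has 1 array. The differences of the 7 members above background kept their values within 0.25, the robust SD of all genes, under centring, quantile normalization, loess correction (fraction 0.3), raised low values and averaged rows. Over these, Nkg7 lay between -1.32 and -1.25 and Gzmb between -1.19 and -1.13. The median of the members lay between -0.07 and -0.02 over these and the other background filters. Of the members, 2 stayed at least 2-fold lower under each scaling and background filter, and 0 did so at a 3-fold threshold, where 0.304% of all genes were counted. With the natural log read as log2 signal, chosen after the data were seen, Nkg7 was at -0.87 and Gzmb at -0.78, and 0 members and 0 genes of the related lists were 2-fold apart. With background at the 99th percentile of olfactory receptor rows, 0 related genes were at least 2-fold higher, since Tbx21 was then bounded. Among the members, signal over background limits Gzmc, Gzmk, Gzmm and Prf1.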

Other observations

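The protein-coding neighbours of the members, up to 3 on each side in the order of the GRCm38.p6 gene table, were compared, leaving out neighbours that are themselves members. Of these neighbours 21 were above background on 1 array or both, 0 of them at least 2-fold apart, with differences between -0.58 and 0.83 and a median of 0.18. Among all genes above background only 1.55% were at least 2-fold apart in either direction, so a count of 0 among 21 says little. Nkg7 lies between Lim2, a lens membrane gene, and Cldnd2, and neither was above background on either array. On the side of Gzmb away from Gzmc, Atp12a was under background and Rnf17, a germ cell gene, was higher by 0.83, opposite in sign to Gzmb. Next to Srgn, Kifbp differed by 0.72. Fibp, whose annotated span overlaps that of Ctsw, differed by 0.56, in the same direction as Ctsw at 0.43. Gzma and Gzmk are adjacent, and Gzma was above background on both arrays while Gzmk was not.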
